A study of Homo sapiens with 12 samples.

Results

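Sirtuins and the enzymes that supply their cofactor were followed as 10 genes, SIRT1 to SIRT7, NAMPT, NMNAT2 and NADK, each matched by its symbol in a table of 35337 genes. Each of the 10 had reads and passed the filter on low values that left 13847 genes for testing. The cells were EndoC-βH3, a human beta-like line derived from fetal pancreas and kept dividing by transgenes for SV40 large T antigen and hTERT. In the 6 senescent samples, 4-hydroxy-tamoxifen (4-OHT), given for 3 weeks, activated the CreER recombinase that the line carries, which excises those genes. The 6 non-senescent samples are labelled control, and the labels name no vehicle for them. Both groups are labelled WT and were kept in low glucose medium (1 g/L) with 10 mM nicotinamide, which is a precursor of NAD and also an inhibitor of sirtuins, so no value here comes from cells without it. Since the senescent cells differ from the others by the drug, by recombinase activity, by the loss of both immortalizing genes and by arrest, these cannot be told apart. Samples fell in batch A (2 of each group) and batch B (4 of each group). All samples come from 1 line, and no label says that they came from separate cultures, so the p-values measure the spread between these samples, which may be technical.

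Sirtuins are enzymes that remove acetyl and other acyl groups from lysines, and some transfer ADP-ribose. Each reaction uses up NAD and releases nicotinamide. NAMPT returns nicotinamide to NAD synthesis as nicotinamide mononucleotide (NMN) in the rate-limiting step of the salvage route, the NMNAT enzymes turn NMN into NAD, and NADK phosphorylates NAD to NADP. In beta cells insulin secretion is coupled to the oxidation of glucose, in which NAD is the main electron acceptor, and SIRT1 is known there as a positive regulator of glucose-stimulated secretion. SIRT1, SIRT6 and SIRT7 are mainly nuclear, SIRT2 mainly cytoplasmic, and SIRT3, SIRT4 and SIRT5 mitochondrial.

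Upon senescence the mRNAs of NMNAT2, SIRT5, SIRT3 and SIRT2 rose and that of SIRT6 fell, while NAMPT and NADK, the enzymes before and after the NMNAT step, showed no change that passed the test. Outside the 10 genes, the other NMNAT enzymes did not rise with NMNAT2. The log2 fold change was 0.05 for NMNAT1 and −0.59 for NMNAT3, and it was 1.19 for NADK2, the mitochondrial NAD kinase. NMNAT2 rose 3.57-fold, SIRT5 1.96-fold, SIRT3 1.71-fold and SIRT2 1.66-fold, and SIRT6 came to 0.620 of its non-senescent level (limma, adjusted p between 9.89e-09 for NMNAT2 and 0.00576 for SIRT3). A gene was called changed when its p, adjusted by Benjamini and Hochberg's method, was under 0.1 and its fold change over 1.5. By this rule 5 of 10 genes were called, 4 higher and 1 lower. Over all 13847 genes tested 23.4% were called, 11.6% higher and 11.8% lower, so 5 of 10 stands against a background of about 1 gene in 4. The median log2 fold change of the 10 genes was 0.38, and that of all genes tested was 0.012. Without a limit on the fold change, 6 of the 10 genes passed, against 45.5% of all genes.

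**Figure D1:**
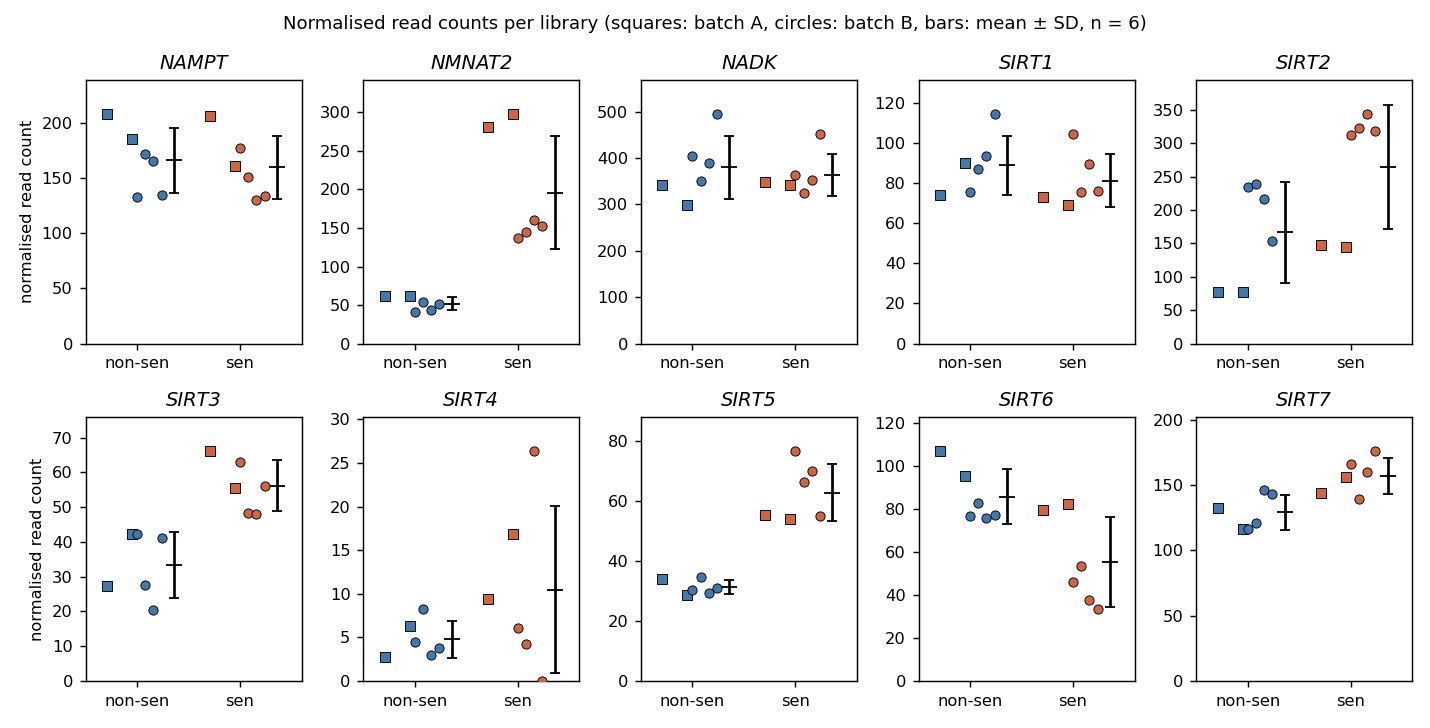
Normalised read counts of the 10 genes in each library, 1 panel per gene with an axis from 0. Squares are batch A and circles batch B, blue points are non-senescent and red points senescent libraries, and bars give the mean and SD of 6. NMNAT2, SIRT3 and SIRT5 do not overlap between groups, and SIRT2 and SIRT6 separate within each batch although the batches lie at different levels.

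Values are normalised read counts, that is, reads divided by a scaling factor of the library. Libraries held 8873569 to 17106776 reads in batch A and 4672924 to 7063264 in batch B, so low genes carried less counting error in batch A, with fewer replicates. The first principal component (57.6% of the variance) separated the batches and the second (19.3%) the groups, and the reported fits therefore held batch as a term. MKI67, a proliferation marker, fell by 2.83 on the log2 scale, while INS ranged from 11021 to 34331 in non-senescent and from 49685 to 185508 in senescent libraries. Of 8 beta-cell markers 4 were called higher (INS, IAPP, PDX1 and MAFA) and 1 lower (PCSK1), and the alpha-cell hormone GCG and the delta-cell markers SST and HHEX were called lower. SST, which defines delta cells, stood above INS in each non-senescent library (159785 to 287479, and 114932 to 142626 in senescent ones). Of other lineages, SOX9 had 33 reads, CFTR 8, PDGFRA 14 and PRSS1 7 over all libraries, whereas KRT19 fell (236 to 378 against 75.9 to 157) and CPA1 rose (33.9 to 58.4 against 143 to 248). The stromal genes COL1A1 (144 reads) and COL3A1 (236) and the endothelial gene PECAM1 (96) were detected as well and were not called. The immune marker PTPRC (94 reads) was called lower, with a log2 fold change of −1.58 (limma, adjusted p = 0.00720). Batch A gave −0.34 and batch B −2.20 for PTPRC, and its ranges over both batches overlapped (3.89 to 26.1 against 2.10 to 5.44). The part of these markers in the changes below was not tested. In bulk RNA, fewer cells with a transcript and less transcript per cell cannot be told apart.

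Bases before the transcription start are shown for 3 genes, chosen to set the gene with the largest rise (NMNAT2) beside 2 mainly nuclear sirtuins, of which one fell (SIRT6) and one did not pass the test (SIRT1). RefSeq starts on GRCh38.p14 matched 9 of the 10 genes, and SIRT7 had no entry. The 250 bases before each start are written 5′ to 3′ on the strand of the gene, for NMNAT2 at chr1:183418381-183418630 (minus strand), SIRT6 at chr19:4182564-4182813 (minus strand) and SIRT1 at chr10:67884406-67884655 (plus strand). Capitals mark exact matches, on either strand, to 7 short motifs known as sites of E2F, Sp1 (the GC box), NF-Y (the CCAAT box), basic helix-loop-helix factors (the E-box), CREB (the CRE), ETS factors and NRF1.
NMNAT2: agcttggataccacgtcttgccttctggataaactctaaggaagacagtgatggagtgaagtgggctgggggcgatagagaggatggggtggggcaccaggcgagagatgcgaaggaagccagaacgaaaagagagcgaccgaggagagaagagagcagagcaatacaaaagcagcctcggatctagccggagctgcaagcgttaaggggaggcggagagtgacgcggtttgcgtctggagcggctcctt
SIRT6: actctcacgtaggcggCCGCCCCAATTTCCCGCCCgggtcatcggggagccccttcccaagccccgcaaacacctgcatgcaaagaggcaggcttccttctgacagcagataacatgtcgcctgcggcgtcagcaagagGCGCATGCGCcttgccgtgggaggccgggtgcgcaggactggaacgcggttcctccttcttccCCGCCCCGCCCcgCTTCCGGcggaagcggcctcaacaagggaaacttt
SIRT1: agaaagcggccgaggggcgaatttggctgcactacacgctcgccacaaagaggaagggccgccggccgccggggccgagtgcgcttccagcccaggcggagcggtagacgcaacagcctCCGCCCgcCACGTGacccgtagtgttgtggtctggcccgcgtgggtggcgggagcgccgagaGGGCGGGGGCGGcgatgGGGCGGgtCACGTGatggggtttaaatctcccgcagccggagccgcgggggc
The NMNAT2 window held none of the 7 motifs and was 56.8% G or C, near the median of 58% over 35116 windows of the same length. The SIRT6 window (65.6% G or C) held 4 matches to the GC box, 1 to the E2F element, 1 to the CCAAT box, 1 to the ETS element and 2 overlapping matches to the NRF1 element. The E2F match overlaps that of the CCAAT box and 1 of those of the GC box. The SIRT1 window (72% G or C) held 4 GC boxes and 2 E-boxes. The GC box was searched for as GGGCGG, which 42.6% of the 35116 windows held. The CCAAT box, searched for by the letters of its name, stood in 32% of them. The E-box was taken as CACGTG and was present in 6.34% of the windows. The ETS element was written as CTTCCGG, and 8.52% of the windows had it. The NRF1 element (GCATGCGC) was found in 2.63%, the CRE (TGACGTCA) in 1.65% and the E2F element (TTTCCCGC) in 1.39% of the windows. These matches describe letters in the window and were not tied to binding, and the motifs were chosen after the sequences had been seen.

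NMNAT2 showed the largest change of the 10. It encodes the cytosolic, Golgi-associated NMN adenylyl transferase, a labile enzyme best known for keeping axons alive, and lies on chromosome 1 (GRCh38, 183248237 to 183418380, minus strand, 11 exons in the MANE transcript). In batch A its non-senescent libraries read 61.1 and 61.2 and its senescent libraries 281 and 298. In batch B the non-senescent libraries read 40.7, 53.7, 43.8 and 50.9 and the senescent libraries 137, 145, 160.2 and 153. Every senescent library thus exceeded every non-senescent one. The means were 51.9 ± 8.57 and 196 ± 73.3 (SD, n = 6 each). The log2 fold change was 1.83 with an SE of 0.13 and a 95% interval from 1.55 to 2.12 (limma, adjusted p = 9.89e-09). It ranked 174 by p among the 13847 genes, and 96.6% of them had a smaller absolute log2 fold change. The rise was 2.22 on the log2 scale in batch A and 1.64 in batch B, and this difference did not pass the test of the batch by group interaction (limma, adjusted p = 0.248, unadjusted p = 0.0276).

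NAMPT, which precedes NMNAT2 in the salvage route, lies on chromosome 7 (106248298 to 106285966, minus strand). Its non-senescent libraries ran from 133 to 208 with a median of 169 and its senescent libraries from 130.5 to 206 with a median of 156. The groups overlapped in both batches. The means were 166 ± 29.3 and 160 ± 28.7 (SD, n = 6 each), and the log2 fold change was −0.06 with a 95% interval from −0.30 to 0.19 (limma, adjusted p = 0.750), which excludes a change of 1.5-fold either way at that confidence. Its processed pseudogenes NAMPTP1, NAMPTP2 and NAMPTP3 had few reads, 3 and 9 for NAMPTP1 in the non-senescent and senescent groups, 4 and 0 for NAMPTP2 and 0 and 0 for NAMPTP3.

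NADK, the cytosolic NAD kinase, lies on chromosome 1 (1751232 to 1780457, minus strand). Its libraries ran from 298 to 494 with a median of 370 in non-senescent cells and from 324 to 452 with a median of 350.2 in senescent cells. The log2 fold change was −0.05 with a 95% interval from −0.27 to 0.17 (limma, adjusted p = 0.735). The sign differed between batches, 0.11 in A and −0.13 in B. NADK was the only one of the 10 genes to do so: 9 of 10 had the same sign in both batches, as did 70.4% of all genes tested.

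SIRT3 and SIRT5, the mitochondrial sirtuins that remove acetyl groups and succinyl or malonyl groups respectively, both rose. SIRT5 (chromosome 6, 13574227 to 13615158, plus strand) read 33.9 and 28.6 in the non-senescent and 55.2 and 53.8 in the senescent libraries of batch A. In batch B it read 30.1, 34.4, 29.2 and 31.1 against 76.3, 66.1, 69.8 and 54.8. No library of one group reached the range of the other, and the spread among non-senescent libraries was small (31.2 ± 2.43 against 62.7 ± 9.46, SD, n = 6 each). The log2 fold change was 0.97 with an SE of 0.16 (limma, adjusted p = 9.87e-05).

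SIRT3 (chromosome 11, 215030 to 236931, minus strand) read 27.2 and 42.1 against 66.0 and 55.6 in batch A. In batch B the non-senescent libraries read 42.2, 27.5, 20.5 and 41.0 and the senescent libraries 63.0, 48.3, 48.1 and 56.1. The groups did not overlap, although the lowest senescent library lay close to the highest non-senescent one. The means were 33.4 ± 9.49 and 56.2 ± 7.37 (SD, n = 6 each), and the log2 fold change was 0.77 with an SE of 0.20 (limma, adjusted p = 0.00576), nearly alike in batch A (0.82) and batch B (0.75). The 3′ end of SIRT3, where CEL-seq2 reads, is overlapped by RIC8A on the opposite strand (207708 to 215113, mean 559), and the strand setting of the quantification is not given in the sources used here, so that reads of both genes may be mixed. SIRT5 likewise ends in a region with an opposite-strand lncRNA.

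SIRT4, the third mitochondrial member, known to modify glutamate dehydrogenase and to restrain amino-acid-stimulated insulin secretion, was near the detection limit. Its non-senescent libraries held 5 and 8 reads in batch A and 3, 6, 2 and 3 in batch B, and its senescent libraries 21 and 28 in batch A and 5, 4, 23 and 0 in batch B. It exceeded the mean of 5 needed for testing only through the senescent group (4.76 ± 2.16 against 10.49 ± 9.62, SD, n = 6 each). The senescent libraries of batch B spanned the whole range, and 1 of them had no read, which allows up to 3 reads (0.502 ppm of the reads of that library, counting error only). The log2 fold change was 0.47 with a 95% interval from −0.82 to 1.76 (limma, adjusted p = 0.583), being 1.37 in batch A and 0.02 in batch B.

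SIRT2, which deacetylates tubulin and other cytoplasmic proteins, was the most abundant sirtuin in batch B and differed most between batches. It lies on chromosome 19 (38878555 to 38899862, minus strand). In batch A it read 77.3 and 77.1 in non-senescent and 147 and 144 in senescent libraries. In batch B it read 235, 238, 216 and 154 in non-senescent and 311, 322, 343 and 319 in senescent libraries. Pooled over batches the groups overlap, since senescent libraries of batch A lie below non-senescent libraries of batch B. Within each batch they do not. The log2 fold change was 0.73 with an SE of 0.11 and a 95% interval from 0.49 to 0.97 (limma, adjusted p = 7.21e-05), 0.91 in batch A and 0.64 in batch B. Without the batch term the same difference did not pass the test (limma, adjusted p = 0.222).

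SIRT6, a chromatin deacetylase with roles in telomere maintenance, DNA repair and the restraint of glycolytic genes, was the member that fell. It lies on chromosome 19 (4174109 to 4182566, minus strand). Batch A read 107 and 95.4 in non-senescent and 79.5 and 82.1 in senescent libraries. Batch B read 76.8, 82.6, 76.0 and 77.03 in non-senescent and 46.0, 53.5, 37.8 and 33.6 in senescent libraries. The groups separated within each batch, more widely in B. The means were 85.7 ± 12.6 and 55.4 ± 20.8 (SD, n = 6 each), and the log2 fold change was −0.69 with an SE of 0.16 and a 95% interval from −1.02 to −0.36 (limma, adjusted p = 0.00190). The fall was 0.88 on the log2 scale in batch B; in batch A the log2 fold change was −0.32, which taken alone did not pass the test (limma, adjusted p = 0.122). The difference between batches did not pass either (limma, interaction adjusted p = 0.399).

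The other 2 mainly nuclear sirtuins were not called. SIRT1 (chromosome 10, 67884656 to 67918390, plus strand) ran from 73.9 to 114 with a median of 88.3 in non-senescent and from 68.8 to 104 with a median of 75.8 in senescent libraries. In batch A both senescent libraries (73.2 and 68.8) lay below both non-senescent ones (73.9 and 89.8), narrowly in 1 case, and in batch B the groups overlapped. Its log2 fold change was −0.13 with a 95% interval from −0.42 to 0.17 (limma, adjusted p = 0.501). SIRT7, a nucleolar deacetylase tied to ribosomal DNA transcription (chromosome 17, 81911939 to 81921323, minus strand), ran from 116 to 146 with a median of 127 and from 140 to 176 with a median of 158. Its means were 129 ± 13.4 and 157 ± 13.5 (SD, n = 6 each). The log2 fold change of 0.28 passed the p limit (SE 0.11, limma, adjusted p = 0.0468) but at 1.22-fold stayed under the fold limit. SIRT7 shares part of its span with MAFG on the same strand, away from its 3′ end.

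**Figure D2:**
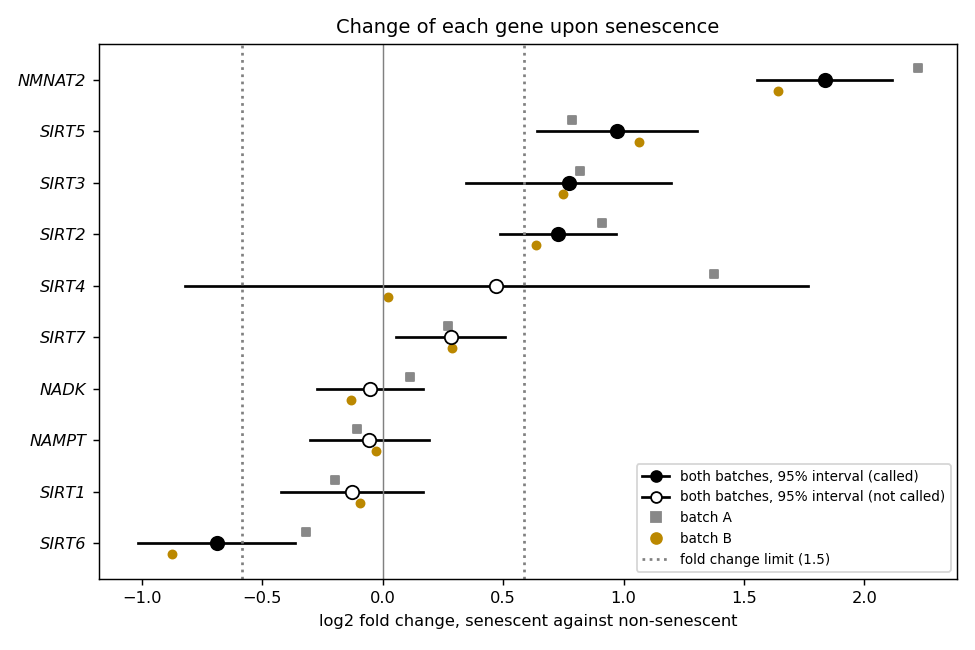
Log2 fold change of each gene, senescent against non-senescent. Black circles give the fit over both batches with its 95% interval (filled when called), grey squares batch A, brown circles batch B, and dotted lines the fold change limit of 1.5. NMNAT2 lies at 1.83 and SIRT6 at −0.69, and the widest interval is that of SIRT4.

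Within batch A and within batch B alike, the groups did not overlap and moved in the same direction for 5 of the 10 genes, the same 5 that were called. Over all genes tested 23.8% separated in this way. The batch by group interaction passed an adjusted p under 0.1 for 0 of the 10 genes in limma, with 1 gene, NMNAT2, at an unadjusted p under 0.05. edgeR on the recovered reads gave 0 as well, with 1 at an unadjusted p under 0.05. Over all genes 4.21% passed the interaction test.

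Because CEL-seq2 counts 1 end per transcript, reads were not divided by transcript length, and levels of different genes are compared here in ppm of the reads of a library. NADK was the most abundant in both groups, at 54.0 ppm in non-senescent and 48.1 in senescent libraries on average. Next in non-senescent cells came SIRT2 and NAMPT (23.7 each), SIRT7 (18.4), SIRT1 (12.7), SIRT6 (12.2), NMNAT2 (7.38), SIRT3 (4.74), SIRT5 (4.44) and SIRT4 (0.679). In senescent cells SIRT2 reached 35.2 and NMNAT2 25.7, ahead of NAMPT (21.1), SIRT7 (20.7), SIRT1 (10.7), SIRT5 (8.30), SIRT3 (7.42), SIRT6 (7.28) and SIRT4 (1.38). These means pool the batches, and the order depended on the batch. In senescent libraries NMNAT2 lay at 36.7 to 37.7 ppm, NAMPT at 20.4 to 26.9 and SIRT2 at 18.3 to 19.2 in batch A, whereas in batch B SIRT2 lay at 41.3 to 46.1, NMNAT2 at 18.2 to 21.5 and NAMPT at 17.5 to 23.5. SIRT3 and SIRT5 overlapped within each batch in both groups, so their order is not resolved. NAMPT and SIRT7 overlapped in batch B, whereas NAMPT lay above SIRT7 in batch A. In senescent libraries SIRT1 lay below SIRT6 in batch A (8.73 to 9.53 against 10.3 to 10.4 ppm) and above it in batch B (10.2 to 13.8 against 4.52 to 7.22). In non-senescent libraries SIRT1 lay below SIRT6 in batch A and overlapped with it in batch B. By mean level the 10 genes ranked between 2664 (NADK) and 13279 (SIRT4) among the genes tested.

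The make-up of the sirtuin mRNA pool is given as a description. The 7 sirtuins together summed to 454 to 455 in non-senescent and 575 to 577 in senescent libraries of batch A, and to 564 to 599 and 709 to 775 in batch B. SIRT3, SIRT4 and SIRT5 together held 69.4 ± 9.67 in non-senescent and 129 ± 13.8 in senescent libraries (SD, n = 6 each), with ranges of 52.6 to 77.1 and 111 to 145. Their share of the sirtuin counts averaged 13.1% and 19.0%. SIRT1, SIRT6 and SIRT7 together held 304 ± 22.9 and 293.5 ± 16.9, a like sum in which SIRT7 was higher and SIRT6 lower, and their share averaged 67.5% and 52.4% in batch A and 52.0% and 38.9% in batch B. The SIRT2 share averaged 16.97% and 25.3% in batch A and 36.2% and 43.7% in batch B. In batch B the SIRT2 shares overlapped, at 27.3% to 40.5% in non-senescent and 40.3% to 45.4% in senescent libraries. A share can move because another member does, so these shares are not independent of one another.

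**Figure D3:**
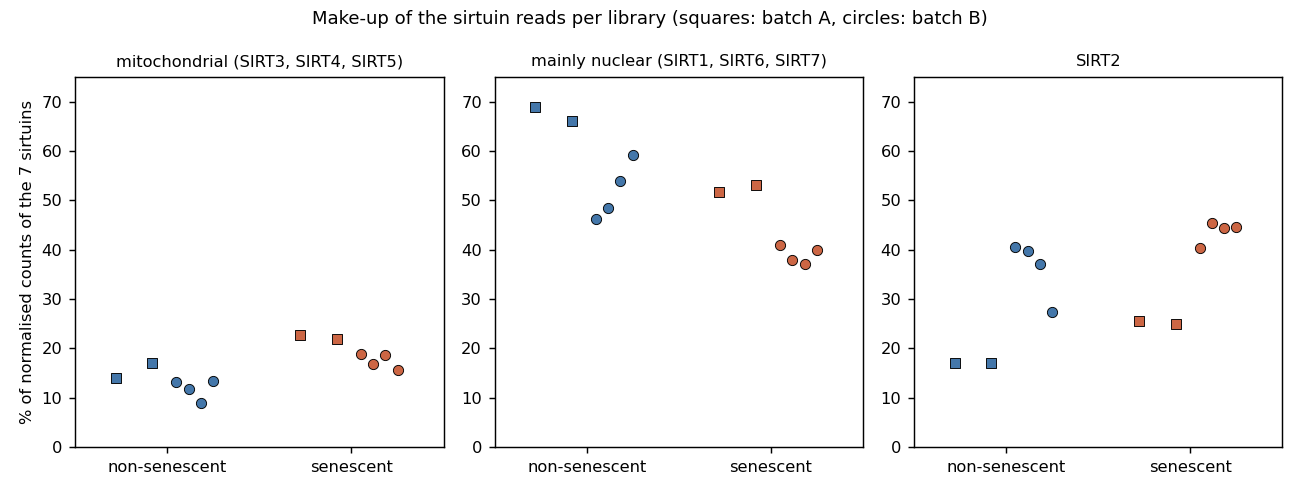
Share of the summed normalised counts of the 7 sirtuins held by the mitochondrial, the mainly nuclear and the cytoplasmic members, in percent per library. Squares are batch A and circles batch B, in blue for non-senescent and red for senescent libraries. The mainly nuclear share lies lower in senescent libraries within each batch, and the batches lie apart for SIRT2.

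Other genes of NAD metabolism and deacetylation were taken from 7 lists with 67 genes, of which 55 had values high enough to test. Of these 55, 5 were called higher and 10 lower, which is 27.3% and near the 23.4% of all genes tested. In NAD synthesis and phosphorylation 11 of 16 genes were tested, 2 were called higher, 2 lower and 7 neither (median log2 fold change 0.05).

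NMRK1, the kinase that makes NMN from nicotinamide riboside, showed the largest rise of all 55. It read 23.0 to 30.01 against 63.4 to 67.8 in batch A and 48.2 to 75.8 against 164 to 234 in batch B, without overlap in either. Its log2 fold change was 1.54 with an SE of 0.15 (limma, adjusted p = 4.80e-07), so that of the 2 kinds of enzyme known to supply NMN, NMRK1 rose and NAMPT did not pass the test. NMNAT3, the mitochondrial NMN adenylyl transferase, fell by 0.59 on the log2 scale (SE 0.13, limma, adjusted p = 0.00136). Its level depended mainly on the batch, from 964 to 1535 against 729 to 1140 in A, where the groups overlap, and from 10260 to 12062 against 5664 to 8469 in B, where they do not. The call of NMNAT3 lay just past the fold limit and was kept in 12 of 16 alternatives with that limit and 6 of 12 fits without 1 library. NMNAT1, the nuclear form, had a log2 fold change of 0.05 (limma, adjusted p = 0.819). The NMNAT3 values are uncertain, because a lncRNA on the opposite strand spans the gene.

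NADK2, the mitochondrial NAD kinase, read 151 to 168 against 495 to 512 in batch A and 34.4 to 55.9 against 61.9 to 94.7 in batch B. Its log2 fold change was 1.19 with an SE of 0.16 (limma, adjusted p = 2.11e-05), whereas its cytosolic counterpart NADK did not pass the test. SKP2, a cell-cycle gene on the opposite strand, overlaps the 3′ end of NADK2, with a mean of 55.6. In the de novo route from tryptophan, KMO fell from a mean of 13.96 to 4.42 (log2 fold change −1.53, limma, adjusted p = 0.00695). KMO exceeded the mean of 5 needed for testing only through the non-senescent group, and in batch B the groups overlapped (6.88 to 24.8 against 1.25 to 9.16). QPRT, the last enzyme specific to that route, had a log2 fold change of 0.47, past the p limit and under the fold limit (844 ± 87.8 against 1178 ± 178, SD, n = 6 each, limma, adjusted p = 2.81e-04). Of the tryptophan dioxygenases, TDO2 had 0 and 5 reads over the non-senescent and senescent libraries, IDO1 0 and 0 and IDO2 21 and 8, all too low to test, as was NMRK2 with 0 and 0.

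Among other enzymes that consume NAD, 14 of 17 were tested, 1 was called higher, 4 lower and 9 neither (median log2 fold change −0.33). PARP1 and PARP2, the DNA-break-activated poly(ADP-ribose) polymerases, both fell. PARP1 read 447 to 457 against 260 to 266 in batch A and 820 to 1232 against 505 to 597 in batch B (log2 fold change −0.93, SE 0.10, limma, adjusted p = 8.30e-07). PARP2 read 336 to 358 against 123 to 168 in batch A and 280 to 359 against 129 to 159 in batch B (log2 fold change −1.18, SE 0.10, limma, adjusted p = 1.07e-07). In both genes the groups did not overlap within either batch. PARP14, an interferon-inducible member, was called lower, on a mean of 11.2 against 3.31 (log2 fold change −1.62, limma, adjusted p = 0.0177). PARP14 exceeded the mean needed for testing only through the non-senescent group. In batch B the groups of PARP14 overlapped (5.84 to 23.4 against 0 to 8.48). PARP9, its interferon-inducible relative, was called lower with a log2 fold change of −0.83 (limma, adjusted p = 0.0780), but batch A gave −1.79 and batch B −0.35 with wide overlap, at 48.2 to 109.6 against 21.8 to 101.8. TNKS, tankyrase 1, rose from 117 to 189 on average (log2 fold change 0.71, limma, adjusted p = 0.0187), with overlap between groups in batch B. The ectoenzymes CD38 and BST1, with 7 and 9 and with 8 and 9 reads over the 2 groups, were too low to test.

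NT5E, the cell-surface nucleotidase that can release nucleosides from extracellular NMN, rose from 88.3 ± 17.9 to 205 ± 51.7 (SD, n = 6 each), with a log2 fold change of 1.19 (limma, adjusted p = 2.17e-06) and no overlap within either batch. It was the one called of 3 tested genes of nicotinamide and NAD breakdown. NNMT, which methylates nicotinamide, had 2 and 13 reads. Of 3 tested transport and interconversion genes 1 was called lower, SLC12A8, which has been described as an NMN transporter (15.03 against 5.48 on average, log2 fold change −1.20, limma, adjusted p = 0.0364). Batch A gave a log2 fold change of 0.03, so the call came from batch B, where it read 12.05 to 33.04 against 2.29 to 7.47. SLC25A51, the mitochondrial NAD carrier, had a log2 fold change of 0.18 (limma, adjusted p = 0.221).

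Of the 3 sirtuin regulators, RPS19BP1 (AROS), described as an activator of SIRT1, fell from 239 to 151 on average (log2 fold change −0.70, limma, adjusted p = 3.09e-04), and CCAR2, an inhibitor of SIRT1, had a log2 fold change of −0.30 (limma, adjusted p = 0.113). Of 11 sirtuin substrates and targets, 1 was called higher and 2 lower. FOXO3, a stress-response factor deacetylated by sirtuins, rose from 382 to 658 on average (log2 fold change 0.86, limma, adjusted p = 2.80e-06). PPARGC1A, the coactivator of mitochondrial biogenesis, was called lower (15.7 against 4.23 on average, log2 fold change −1.70, limma, adjusted p = 0.0311). PPARGC1A exceeded the mean needed for testing only through the non-senescent group. In batch B its groups overlapped (2.92 to 24.8 against 0 to 10.3), and that batch alone did not pass the test (limma, adjusted p = 0.274). IDH2, deacetylated by SIRT3, had a log2 fold change of −0.47 (limma, adjusted p = 5.67e-05), GLUD1, the target of SIRT4, 0.06 (limma, adjusted p = 0.745) and UCP2, repressed by SIRT1 in beta cells, 0.38 (limma, adjusted p = 6.60e-04), all under the fold limit.

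The zinc-dependent histone deacetylases need no NAD. Of 10 tested, 0 were called by limma, with 4 at an unadjusted p under 0.05, and edgeR and DESeq2 also called 0, where 23.4% of all genes were called by limma. Without the fold limit 3 of the 10 passed, against 45.5% of all genes. HDAC2, the most abundant at 2180 ± 389 against 1831 ± 300.2 (SD, n = 6 each), had a log2 fold change of −0.25 (limma, adjusted p = 0.00415), and HDAC6, which like SIRT2 deacetylates tubulin, had one of −0.42 (limma, adjusted p = 0.00601). Neither reached the fold limit. Whether the sirtuins and these deacetylases differ as groups was not tested.

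**Figure D4:**
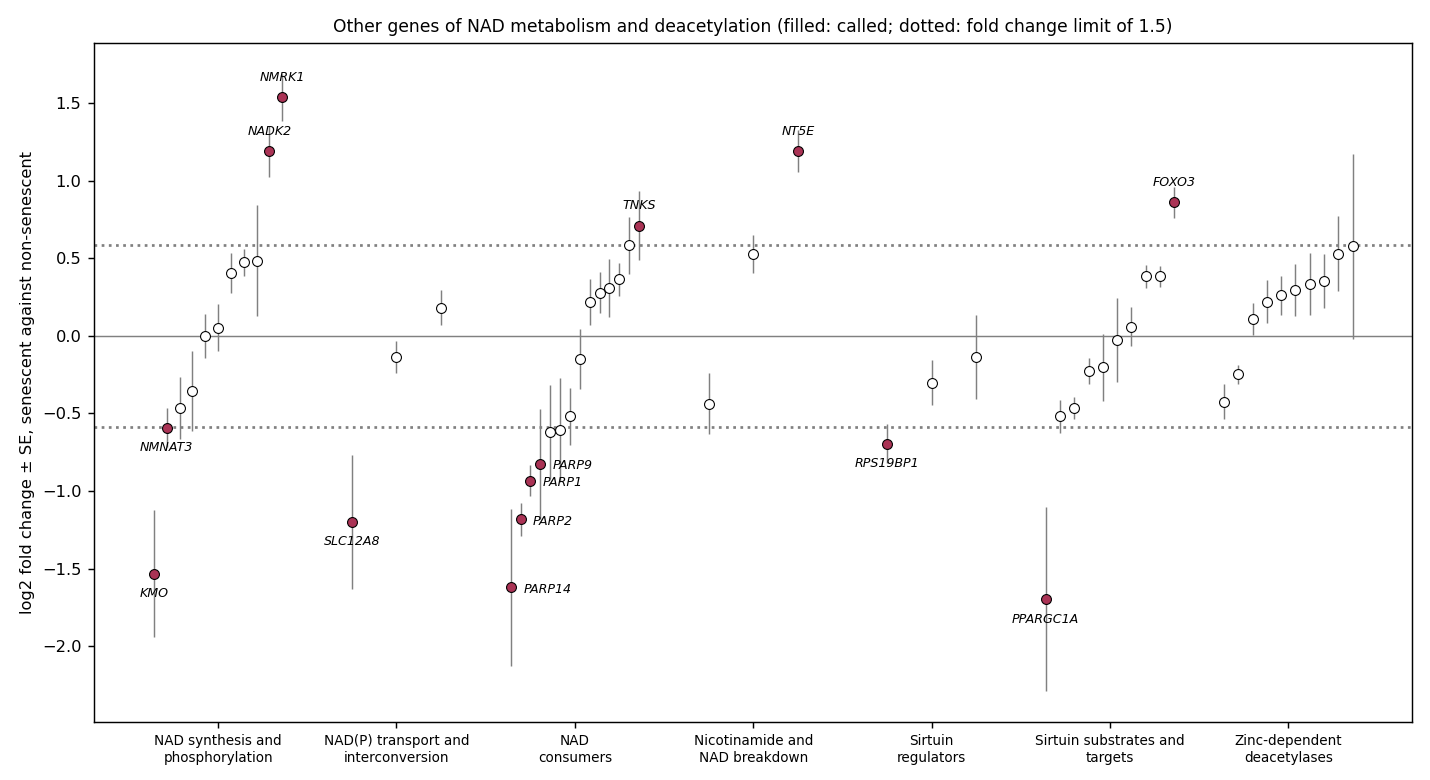
Log2 fold changes with SE of the other genes tested, by list, senescent against non-senescent. Filled circles were called and are named, open circles were not, and dotted lines mark the fold change limit of 1.5. NMRK1 is highest at 1.54, and none of the zinc-dependent deacetylases is filled.

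The genes most like each of the 3 called genes with the smallest p were sought among 11681 genes with a mean of at least 20, by Pearson r of log2 values centred within batch over the 12 libraries. For NMNAT2 these were EFNB1 (r = 0.994), LINGO1 (r = 0.994) and TUBB3 (r = 0.993), a membrane ephrin, a neuronal surface protein and a neuronal tubulin, each also higher in senescent cells (log2 fold changes 2.37, 1.68 and 1.67). For SIRT5 they were C1orf53 (r = 0.984), CD46 (r = 0.984) and BFAR (r = 0.983), and for SIRT2 RPS6KL1 (r = 0.980), CTDSP1 (r = 0.975) and ALAD (r = 0.969). The libraries share the group difference and their scaling, so these values describe the pattern and carry no p.

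**Figure D5:**
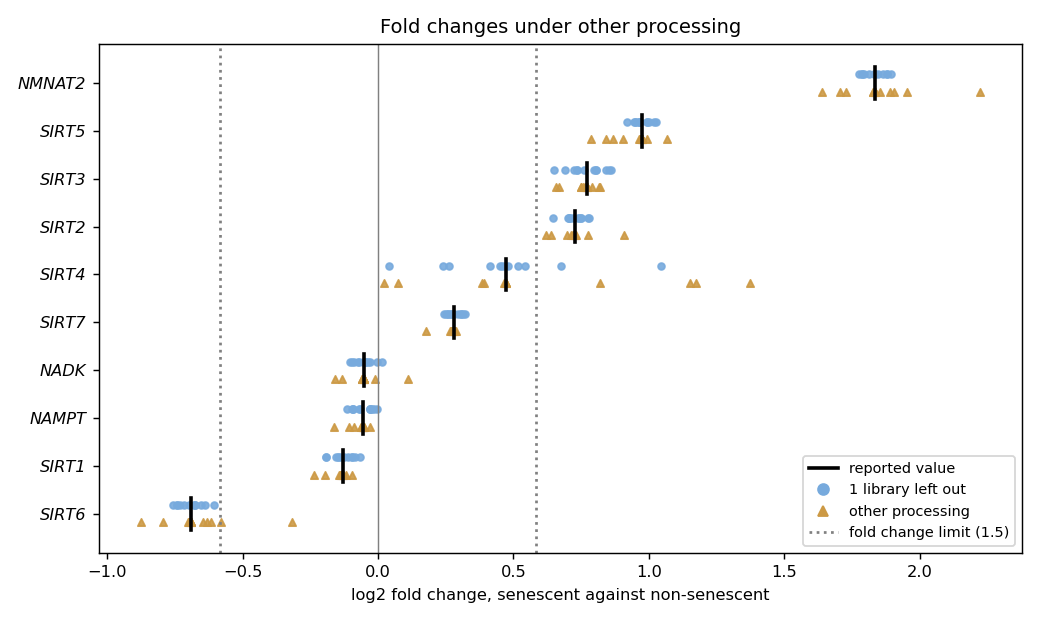
Log2 fold change of each gene under other processing: the reported value (black bar), fits with 1 library left out (blue circles) and fits with other settings, scalings or tools or with 1 batch (brown triangles). NMNAT2 lies between 1.64 and 2.22 throughout, SIRT5, SIRT3 and SIRT2 stay above the fold limit, SIRT6 reaches −0.32 in batch A alone, and SIRT4 runs from 0.02 to 1.37.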

How the data were processed

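Poly(A) RNA of 12 EndoC-βH3 samples, 6 senescent and 6 non-senescent in batches A and B, was profiled by CEL-seq2, which reads the 3′ end of transcripts. Groups, batches (the letter in the title) and replicates came from the labels. By the labels and methods, the authors ran Cutadapt on the reads, Salmon 0.13.1 for quantification (GRCh38) and DESeq2 for normalisation. The annotation, strand setting and use of molecular identifiers are not given in the sources used here. The deposited values are a signal, reads divided by 1 DESeq2 size factor per library. All 196021 values above 0 were whole multiples (tolerance 1e-06) of 1 read, so reads were recovered. The deposited p-values, log2 fold changes with their errors and the statistic (a score) hold the authors' comparison and were not used.

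Totals were 4672924 to 17106776 reads. A count of 0 allows 3 reads, 0.175 to 0.642 ppm of the reads by library, counting error only. Pairs of libraries of 1 group and batch differed beyond counting noise (chi-square per degree of freedom 4.28 to 8.05 in 14 pairs), so none was 1 library sequenced again. Separate preparations of 1 RNA or 1 culture could also differ in this way, so the comparison cannot tell them from separate cultures.

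The values are not raw counts, so limma 3.58.1 (R 4.3.3) was fitted on log2(value + 1) with intensity trend, batch and group, for 13847 genes with a mean of at least 5. Fold changes on this scale understate those of low genes. Called genes had a fold over 1.5 and p under 0.1 after Benjamini-Hochberg adjustment. The batch by group interaction was fitted likewise. edgeR 4.0.16 and DESeq2 1.42.0 on recovered reads, other pseudocounts, filters, scalings, trend and weights, no batch term, a replicate block, single batches and each library left out were alternatives. The limma fit of batch and group was also run on simulated counts whose spread was estimated from these data. Changed genes were simulated only at a mean of at least 20, so recovery of lower genes was not examined, and the outcome is not reported here. The genes, lists and tests were chosen with earlier results of these data known. Named were the 10 genes, called genes of 7 lists with up to 4 abundant others per list, and genes most like the 3 called genes with the smallest p; GLUD1 and the reads of untested list genes were added after their values were seen. Positions came from GENCODE on GRCh38, sequences from RefSeq (GRCh38.p14), with promoters on chromosome 8 left out of the shares. One called gene of the lists is counted but not reported here singly.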

Additional observations from a re-analysis of the deposited data

Results flagged for a closer look

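In a comparison of the extreme value of each group with the nearest other library, over 20 gene and group combinations, 1 stood apart beyond the 95% limit. NADK read 452 in senescent library B4, and the next highest senescent library read 364. The gap took up 0.693 of the range of the group. For values from a single normal distribution chance gives about 1 such flag in 20 groups. Each group here pools batches A and B, so that rate is only a rough guide. The non-senescent library B4 was also the highest of its group for NADK (494), and replicate numbers do not pair the libraries. NADK did not pass the test with or without either library.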

How the results depend on the processing

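Between 4 and 6 of the 10 genes were called in each alternative, and 5 in 14 of 17 alternatives and in 11 of 12 fits without 1 library. NMNAT2, SIRT5 and SIRT3 were called in every one of them. SIRT2 was lost without the batch term (adjusted p = 0.222), SIRT6 with array weights (log2 fold change −0.58) and in batch A alone (−0.32, adjusted p = 0.122), and SIRT4 was called in batch A alone (1.37, adjusted p = 0.0642) and without senescent library B4 (1.04, adjusted p = 0.0890). SIRT7 was called with no fold limit. NADK changed sign in batch A alone (0.11) and without non-senescent library B4 (0.016; −0.10 to 0.016 over the libraries left out), without passing the test. Without the batch term 2143 genes of the whole table and 9 of the 55 list genes were called, and with no fold limit 6301 and 31, against 3237 and 15. The interaction passed for 583 genes, and for 169 to 743 with 1 library left out, namely 261 and 175 without non-senescent A1 or A2 and 183 and 169 without senescent A1 or A2, since batch A then keeps 1 library in a group, which is assumed to vary like the others. With libraries scaled to the same total, 1226 genes were higher and 2090 lower (37.0% higher, against 49.6%) and the median of all genes was −0.09, while the sign of each of the 10 genes was unchanged and SIRT7 no longer passed the p limit (adjusted p = 0.217). SIRT4 was not tested at a mean of at least 20. Among the zinc-dependent deacetylases 1 was called in batch A alone and without non-senescent A1, non-senescent B3 or senescent B4. Of the called list genes, NMNAT3 was lost in batch A alone, without the batch term, with array weights, in DESeq2 (−0.58) and without any 1 of non-senescent A2, B1 and B3 and senescent A1, B2 and B4 (−0.52 to −0.56), and PARP9 kept its call in 8 of 16 alternatives, not in edgeR, DESeq2 or batch B alone, and lost it without any 1 of non-senescent A1, A2, B3 and B4 and senescent A1, A2 and B1 (−0.56 to −0.81). TNKS was lost in either batch alone and without non-senescent B1 (0.56) or senescent B4 (0.58), and PPARGC1A without the batch term and in batch B alone. Without the batch term NADK2 (limma, adjusted p = 0.245) and FOXO3 (limma, adjusted p = 0.124) also lost their calls. In batch A alone RPS19BP1 (−0.44) and PARP14 (limma, adjusted p = 0.101) did. KMO, PARP14 and PPARGC1A were not tested at a mean of at least 20. The call of SLC12A8 was lost in batch A alone, without the batch term and with array weights, and it was not tested at a mean of at least 20. Adding pseudogene reads to NAMPT, an alternative chosen after seeing the data, gave −0.05. Replicate numbers did not pair the libraries (correlation of deviations −0.05 to 0.016, and 1 of 12 libraries was closest to its own number). With a replicate block 5 of the 10 genes were called, 16 list genes and 3211 genes in all.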
